A study of Mus musculus with 10 samples.

Results

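Clusterin (Clu) and 4 other secreted chaperones and lipocalins (Lcn2, Ptgds, Apod and A2m) were followed in cells sorted as cardiomyocytes from infarcted mouse hearts. They were picked as a family of functions, with earlier results of these data known, and are found by symbol; they are 5 of the 56832 genes in the count table. The mice carried Sprr1a-GFP, a green fluorescent reporter of Sprr1a, and their titles bear the tag Hetz. The heart source, the genotype and myocardial infarction (MI) were common to every library, with MI at 12 weeks of age and cells taken on day 5. Each of 5 mice (17C1, 17C2, 21A4, 21A5 and 21A7) gave 1 GFP+ library, labelled border zone cardiomyocyte, and 1 GFP- library, labelled remote zone cardiomyocyte. By their titles, the GFP+ libraries join a DAPI-negative and a DAPI-positive sorted fraction, whereas the GFP- libraries hold DAPI-negative cells alone. DAPI is a DNA dye that enters cells with a damaged membrane, and this difference and the difference in GFP cannot be told apart. Uninjured mice were not analysed here.

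Clusterin is a secreted glycoprotein that holds misfolded proteins in solution outside cells, restrains the terminal complement complex and travels with lipoproteins. Alpha-2-macroglobulin, encoded by A2m, traps proteases and also binds misfolded proteins. Lipocalins are small secreted proteins with a barrel-shaped pocket for lipids or other small hydrophobic ligands. Lcn2 binds the iron carriers of bacteria and is stored in neutrophil granules, Ptgds makes prostaglandin D2, and Apod carries lipids.

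RefSeq promoter sequences of GRCm38.p6 matched 3 of the 5 members, Lcn2, Ptgds and Apod. Those of the 2 lipocalins that passed the filter on low counts are shown because these genes took different courses in the mice of the 17C series. Each run holds the 250 bases before the annotated start, read 5′ to 3′ on the minus strand. Lcn2 lies at chr2:32387740-32387989 and Ptgds at chr2:25469750-25469999. Capitals mark a C/EBP-type match in Lcn2 and an AP-1-type match in Ptgds.
Lcn2: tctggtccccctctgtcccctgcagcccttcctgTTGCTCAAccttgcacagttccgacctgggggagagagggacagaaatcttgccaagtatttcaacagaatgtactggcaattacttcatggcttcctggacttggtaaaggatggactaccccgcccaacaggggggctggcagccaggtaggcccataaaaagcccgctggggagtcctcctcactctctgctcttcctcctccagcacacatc
Ptgds: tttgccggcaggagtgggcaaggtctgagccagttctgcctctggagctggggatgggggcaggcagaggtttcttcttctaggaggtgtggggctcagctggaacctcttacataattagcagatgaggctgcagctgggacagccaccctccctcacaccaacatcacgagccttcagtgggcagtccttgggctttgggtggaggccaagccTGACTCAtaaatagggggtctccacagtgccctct

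Both strands of the 250 bases were searched for 6 motifs, none of which holds another. The C/EBP letters TTGCNNAA stood 216 to 209 bases before the Lcn2 start and occurred in 9.56% of 32851 promoters of that length. The AP-1 letters TGANTCA stood 35 to 29 bases before the Ptgds start and occurred in 6.75%. NF-kB, searched as a motif of 10 bases, occurred in 17.6% of promoters. The STAT letters TTCNNNGAA occurred in 7.02% and the letters TTCNNGAA of the heat shock element in 7.17% of them. TATAAA, the TATA box, occurred in 12.4%. These last 4 had no match in Lcn2, Ptgds or Apod, and Apod had no match to any of the 6.

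The libraries held 12244373 to 38879965 counts, of which 9.20% to 91.2% fell on mitochondrial genes, leaving 3417972 to 16918067 counts for all other genes. The highest mitochondrial share was in the GFP+ library of 21A7 and the lowest in its GFP- library. Levels are depth-scaled counts (CPM) after TMM scaling, a correction for the makeup of each library, so 1 count was worth 0.0181 to 0.109 CPM. Sprr1a, the gene behind the reporter, measured 158 to 317 CPM in GFP+ and 0.191 to 8.98 CPM in GFP- libraries. All 11 cardiomyocyte markers were detected in all 10 libraries. Their summed level was 11494 to 44206 CPM in GFP+ and 4461 to 55653 CPM in GFP- libraries, lowest in the GFP- library of 21A7. Fewer cells of a type and less RNA per cell cannot be told apart in such pooled samples.

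Clu was the most abundant member. Its level in GFP+ libraries was 4236 CPM for 21A5, 3227 for 21A4, 1537 for 17C2, 1482 for 17C1 and 635 for 21A7. In GFP- libraries it was 353 CPM for 21A5, 257 for 17C2, 240 for 21A7, 200 for 17C1 and 150 for 21A4. Every GFP+ value lay above every GFP- value, a separation in that direction that 1.54% of the 12115 tested genes showed. The means were 2223 ± 1466 CPM in GFP+ and 240 ± 75.7 CPM in GFP- libraries (SD, n = 5 each). GFP+ libraries thus also spread more among themselves, with the 21A7 value well under the other four. As a share of counts outside mitochondrial genes, Clu made up 0.174% (95% Wilson interval 0.170% to 0.179%) to 0.929% (0.923% to 0.934%) in GFP+ libraries. In GFP- libraries the share ran from 0.0360% (0.0348% to 0.0373%) to 0.108% (0.106% to 0.110%). The intervals cover counting error only, since reads copied by PCR are not separate molecules.

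Within mice, Clu was higher in the GFP+ library 21.6-fold in 21A4, 12.0-fold in 21A5, 7.42-fold in 17C1, 5.98-fold in 17C2 and 2.65-fold in 21A7. The 21A7 direction depends on the scaling. Its TMM factors, 0.241 in GFP+ and 3.31 in GFP-, were the lowest and highest of all libraries. Per total count, Clu was lower in GFP+ 21A7 (5955 of 38879965) than in GFP- 21A7 (13253 of 16870349). Outside mitochondrial genes its share there was higher in GFP+, at 0.174% against 0.0865%. Of all tested genes, 9.14% were higher in GFP+ in 5 of 5 mice. The fitted difference was 3.21 ± 0.57 (log2 fold change ± SE), with an adjusted p of 0.0765 in the unpaired edgeR quasi-likelihood test, which misses the threshold of 0.05. That test called 0.0825% of genes higher. With the mouse as a block, since both libraries come from 1 animal, the difference was 2.98 ± 0.51 with an adjusted edgeR p of 0.0426, where 0.858% of genes were called, 0.685% higher and 0.173% lower. The Clu difference therefore passed the threshold in the paired fit and not in the unpaired one, at a similar size in both. An exact two-sided permutation test on Clu CPM gave p = 0.00794, the smallest that 5 against 5 can give. The exact sign-flip test over the 5 pairs gave p = 0.0625, again the smallest possible, so it cannot pass 0.05. Both tests were run for the 5 members, and the Clu values are unadjusted.

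**Figure D1:**
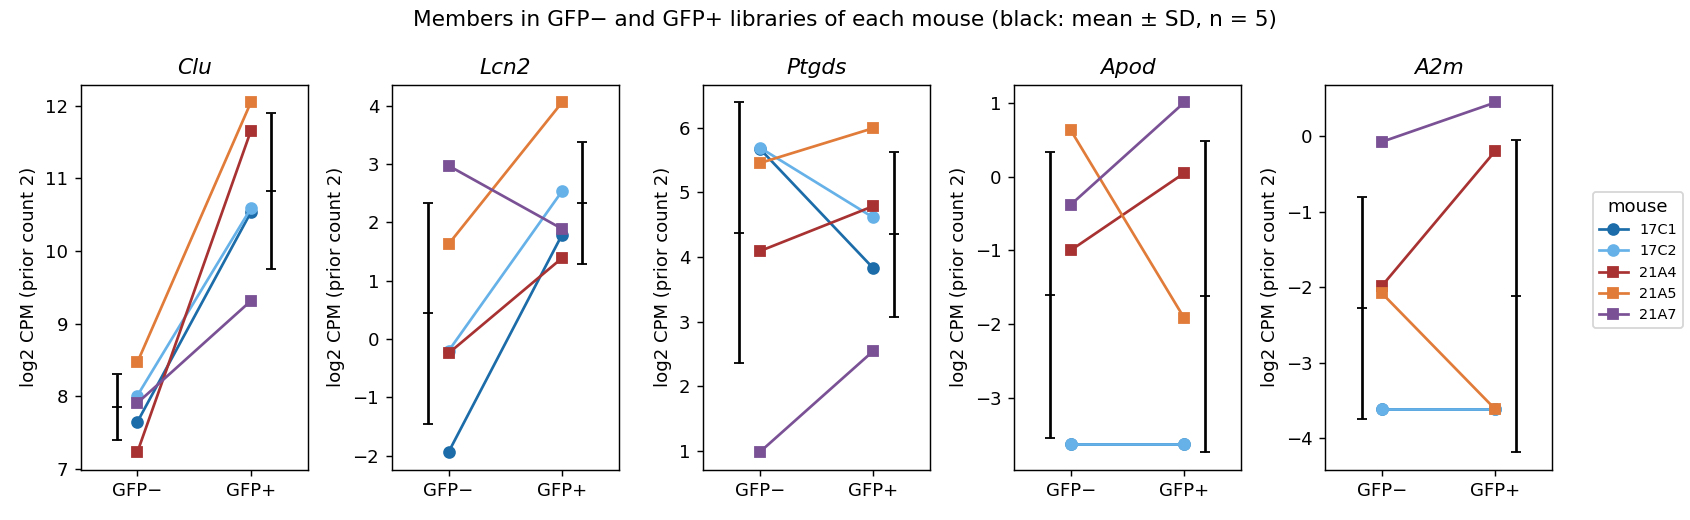
Level of each member as log2 CPM (prior count 2) in the GFP− and GFP+ library of each of 5 mice, joined by lines, with the mean ± SD of each group in black. Clu lies between 635 and 4236 CPM in GFP+ and between 150 and 353 CPM in GFP− libraries, whereas the other 4 members overlap; at 0 counts the lines of 17C1 and 17C2 coincide.

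The size of the Clu difference was steadier than its adjusted p. In all 38 alternative fits the difference was positive, from 2.18 to 3.48, and 14 of them passed the threshold. DESeq2 gave 3.18 with an adjusted p of 3.13e-08 (1.32% of genes called higher), and limma voom with sample weights gave 3.48 with an adjusted p of 0.00229 (2.35% called higher). The paired call was lost without 17C1 (adjusted p 0.0506), 17C2 (0.145), 21A4 (0.242) or 21A5 (0.167) in edgeR. It held without 21A7, the mouse with the smallest Clu difference, at 3.36 (0.0295), and the unpaired test then also passed at 3.45 (0.0214). The mice fall into the identifier series 17C (2 mice) and 21A (3 mice), and Clu was higher in both. With so few mice, the p-values of fits within 1 series lean on the variance shared across all genes. In the 17C mice the difference was 2.73 (adjusted edgeR p 0.000891, with 4.61% of genes called higher), and 2.74 in the paired fit (3.35e-07, 6.08% called higher). In the 21A mice it was 3.48 (0.225, 0% called) unpaired and 3.20 (0.0198, 2.67% called higher) paired. The change differed between the series by 0.44 ± 0.79 with an adjusted edgeR p of 0.783, so no difference between them was detected.

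**Figure D2:**
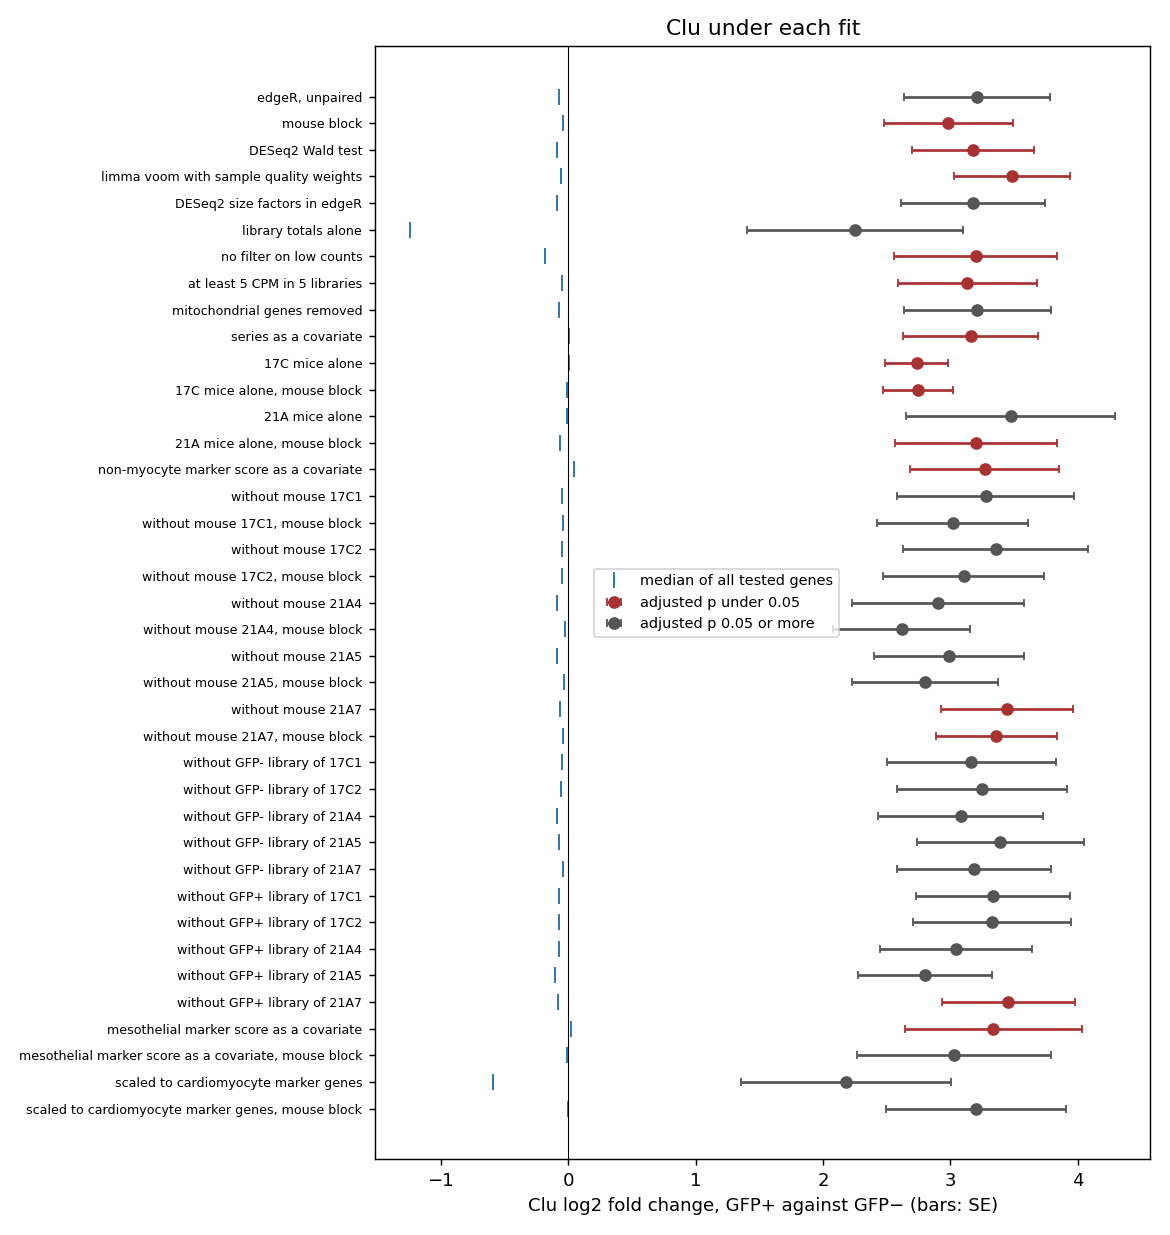
Clu log2 fold change, GFP+ against GFP−, with its SE under each fit; red points have an adjusted p under 0.05 and the blue ticks give the median of all tested genes under the same fit. Every estimate lies between 2.18 and 3.48, and the medians of all genes lie near 0 except with library totals (-1.24) and cardiomyocyte marker scaling without the block (-0.59).

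Markers of other cell types were read beside Clu. The 8 mesothelial markers, genes of the lining of the heart surface, summed to 96.9 to 392 CPM in GFP+ and 1.32 to 182 CPM in GFP- libraries and were higher in 5 of 5 mice. No GFP+ library had any of the 8 at 0, and the GFP- library of 17C1 had 5 at 0. The highest mesothelial sum stood in the GFP+ library of 21A7, which had the lowest Clu level of that group. With the mean mesothelial marker level as a covariate, the Clu difference was 3.34 (adjusted edgeR p 0.0312) unpaired and 3.03 (0.0635) with the mouse block. The unpaired fit with this covariate called 413 of 12115 genes higher and 602 lower. Fibroblast markers summed to 266 to 5132 CPM in GFP+ and 130 to 12102 CPM in GFP- libraries. They were higher in GFP+ in 2 of 5 mice, both of the 17C series. In the GFP- library of 21A7 the fibroblast markers, at 12102 CPM, exceeded the cardiomyocyte markers, at 4461 CPM. In every other library the cardiomyocyte sum was the higher. Mural markers, of vessel wall cells, summed to 123 to 244 CPM in GFP+ and 181 to 602 CPM in GFP- libraries, lower in GFP+ in 5 of 5 mice. Endocardial markers were also lower in 5 of 5 (17.7 to 89.0 against 28.7 to 240.1 CPM). Macrophage markers (22.1 to 339 against 24.1 to 740.1 CPM) and endothelial markers (56.9 to 347 against 84.5 to 636 CPM) were lower in GFP+ in 4 of 5. The part of these cells in the Clu result was not tested beyond the covariate fits. The non-myocyte score is the mean log2 CPM of the fibroblast, macrophage, endothelial and mural markers. It leaves out the mesothelial, endocardial and neutrophil markers. With this score as a covariate, the Clu difference was 3.27 (adjusted edgeR p 0.0330), where 46 of 12115 genes were called higher.

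Clu was also set against the cardiomyocyte markers directly, per 1000 counts of the 11 genes. On this scale the GFP+ libraries held 102 Clu counts for 21A5, 73.0 for 21A4, 68.7 for 17C1, 55.3 for 21A7 and 54.7 for 17C2. The GFP- libraries held 53.7 for 21A7, 16.4 for 21A5, 4.62 for 17C2, 4.19 for 21A4 and 4.15 for 17C1. The groups still did not overlap, but only narrowly, with 54.7 in GFP+ 17C2 against 53.7 in GFP- 21A7. The share of all genes that separate on this scale was not counted. In 21A7 the ratio was 1.03, against 6.25 to 17.4 in the other mice. An edgeR fit was also scaled to these markers, by their geometric mean rather than their sum, so its scale differs from the ratios above. In it the Clu difference was 2.18 (adjusted p 0.914) unpaired and 3.20 (0.450) paired, while the median of all genes was -0.59 in the unpaired case. The part of the cardiomyocyte marker level in the Clu result was not otherwise tested.

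**Figure D3:**
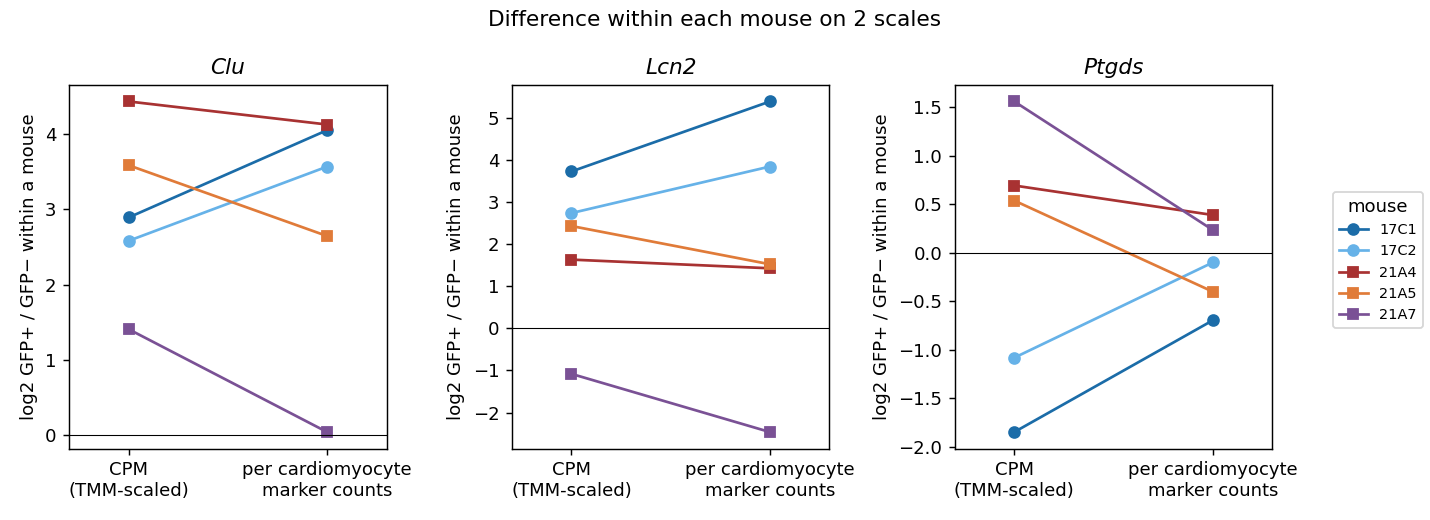
Log2 ratio of the GFP+ to the GFP− library within each mouse for Clu, Lcn2 and Ptgds, on TMM-scaled CPM (left) and per cardiomyocyte marker counts (right). Clu in 21A7 moves from 2.65-fold to 1.03-fold, and the Ptgds ratios draw together to between 0.618 and 1.31.

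Lcn2 was present at low levels. Its GFP+ libraries measured 16.6 CPM for 21A5, 5.71 for 17C2, 3.63 for 21A7, 3.37 for 17C1 and 2.54 for 21A4. Its GFP- libraries measured 7.77 CPM for 21A7, 3.01 for 21A5, 0.787 for 17C2, 0.763 for 21A4 and 0.179 for 17C1. The groups overlapped, and Lcn2 was higher in the GFP+ library of 4 mice and lower in that of 21A7. The 17C libraries rest on few counts, 3 and 10 in GFP- against 31 and 60 in GFP+. The fitted difference was 1.33 ± 0.87 (adjusted edgeR p 0.713), and 2.0 ± 0.72 with the mouse block (0.241). In the 2 17C mice it was 3.25 (0.0763). Their paired fit gave 3.44 with an adjusted edgeR p of 0.0496, where 6.08% of all tested genes were called higher. The 21A mice gave 1.03 (0.706), and the change differed between series by -2.30 ± 1.18 with an adjusted p of 0.256.

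Since neutrophils store Lcn2, their markers were read beside it. The 11 neutrophil markers summed to 0 to 15.5 CPM in GFP+ and 0.120 to 14.6 CPM in GFP- libraries. All 11 were at 0 in the GFP+ libraries of 17C1 and 17C2, the libraries with 31 and 60 Lcn2 counts. In 21A7, where Lcn2 was lower in GFP+, the sums were 15.5 CPM in GFP+ and 14.6 CPM in GFP-. With the mesothelial marker level as a covariate and the mouse as a block, the Lcn2 difference was -0.033 (adjusted edgeR p 0.985), and unpaired it was 0.67 (0.589). With the non-myocyte score as a covariate it was 2.60 (0.221), so these covariates moved it in opposite directions. After removal of group means, Lcn2 correlated with mesothelial markers at r = 0.72, endocardial at 0.69, fibroblast at 0.61, macrophage at 0.60 and cardiomyocyte markers at -0.65 over the 10 libraries, which share their depth and makeup. The part of other cell types in the Lcn2 values was not tested further.

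**Figure D4:**
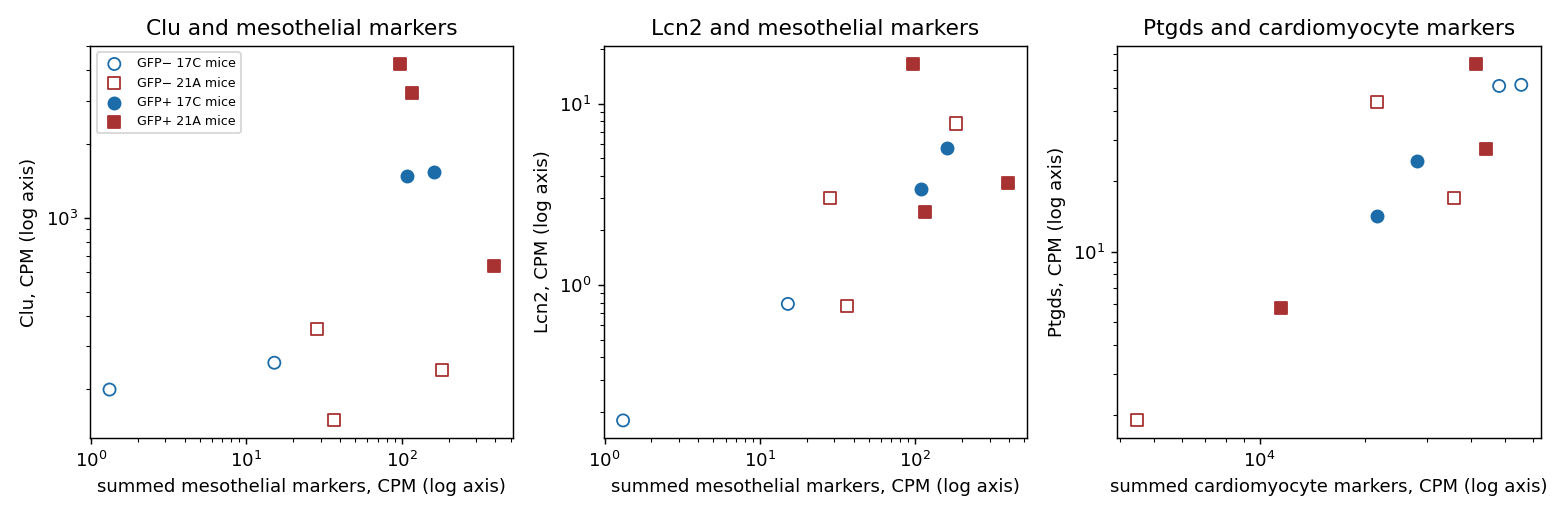
Clu and Lcn2 against the summed mesothelial markers and Ptgds against the summed cardiomyocyte markers, in CPM on log axes, with 1 point per library (open: GFP−; filled: GFP+; circles: 17C mice; squares: 21A mice). At mesothelial sums of 96.9 to 182 CPM, the GFP+ libraries hold at least 1482 CPM of Clu and the GFP− library of 21A7 holds 240 CPM; Ptgds is lowest in the 2 libraries of 21A7, where the cardiomyocyte markers are lowest.

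Ptgds went opposite ways in the 17C and 21A mice. Its GFP+ libraries measured 63.5 CPM for 21A5, 27.5 for 21A4, 24.4 for 17C2, 14.1 for 17C1 and 5.76 for 21A7. Its GFP- libraries measured 51.6 CPM for 17C2, 51.1 for 17C1, 43.7 for 21A5, 17 for 21A4 and 1.90 for 21A7. It was lower in GFP+ in both 17C mice and higher in the 3 21A mice, and the groups overlapped. Across all mice the difference was -0.28 ± 0.75 (adjusted edgeR p 0.938), and -0.02 in the paired fit (0.992). In the 17C mice Ptgds fell by 1.40 on the log2 scale (adjusted edgeR p 0.0226, with 4.92% of genes called lower), and by 1.45 in the paired fit (0.00184, 7.52% called lower). The 21A mice gave 0.66 (0.839) unpaired and 0.92 (0.0629) paired.

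The change in Ptgds differed between the series by 2.36 ± 0.42 (21A minus 17C, mouse as a block), with an adjusted edgeR p of 0.0234. This interaction was called for 923 of the 12115 genes (7.62%). The call was lost without 17C1 (adjusted p 0.107) or 21A5 (0.0833), and without the block (2.05, 0.517). The summed cardiomyocyte markers were also lower in GFP+ in the 17C mice and higher in the 21A mice, with a log2 ratio of GFP+ to GFP- of 1.37 for 21A7, 0.94 for 21A5, 0.31 for 21A4, -0.98 for 17C2 and -1.16 for 17C1. Single markers did not all follow the sum. Of the 11, the number higher in GFP+ was 11 for 21A7, 8 for 21A5, 4 for 21A4, 1 for 17C2 and 2 for 17C1. Actc1 was higher in 5 of 5 mice. Per summed cardiomyocyte marker count, the Ptgds ratio ran from 0.618 in 17C1 to 1.31 in 21A4. The edgeR fit scaled to these markers, a separate measure from that ratio, gave a difference between the series of 0.37 (adjusted p 0.607). With the mesothelial marker level as a covariate and the mouse as a block, the Ptgds difference over all mice was 1.67, with an adjusted edgeR p of 0.0482. This fit called 145 of 12115 genes higher and 152 lower. From GFP- to GFP+ the mean mesothelial log2 CPM rose from -2.64 to 3.29 in 17C1 and 0.639 to 3.87 in 17C2. It rose less in 21A4 (1.93 to 3.47), 21A5 (1.74 to 3.26) and 21A7 (4.34 to 5.30). With the block, this covariate and the series thus cannot be fully told apart. After removal of group means, Ptgds correlated with the cardiomyocyte markers at r = 0.90 over 10 libraries.

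Apod and A2m were near the limit of detection and did not pass the filter on low counts, so 3 of the 5 members entered the main test. Both were at 0 in all 4 libraries of the 17C mice. There 3 counts, the approximate upper 95% limit on the expected count when 0 are seen, correspond to 0.179 to 0.326 CPM. Apod had 22, 66 and 38 counts in the GFP- and 12, 4 and 18 in the GFP+ libraries of 21A4, 21A5 and 21A7. A2m had 9, 7 and 48 counts in the GFP- and 10, 0 and 12 in the GFP+ libraries of these mice. Without the filter, edgeR gave 0.15 ± 1.40 (adjusted p 0.965) for Apod and 0.67 ± 1.61 (0.864) for A2m. Its relative C3 had far more, with 36 to 93903 counts in a library. Pzp, Mug1 and Mug2, the relatives of A2m listed with it among the extracellular chaperones, had at most 6 counts in any library. Reads from such related genes may be split, since the treatment of multi-mapping reads is not given in the sources used here.

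Genes were ranked by how closely they followed each tested member across the 10 libraries, after removal of group means, among 11535 named genes. For Clu these were Eppk1 (r = 0.93), Lamp1 (0.91), Aen (0.90), Ykt6 (0.90) and Rint1 (0.89). For Lcn2 they were Itga5 (0.93), Nop58 (0.92), Lyst (0.91), Slc6a6 (0.91) and Mical2 (0.90). For Ptgds they were Abra (0.99), Synpo2l (0.98), Des (0.98), Xk (0.98) and Bhlhe41 (0.98). Des encodes desmin, the intermediate filament of muscle. Over the differences within the 5 mice, Ccdc43, Synj1, Zfp687, Vps37b and Sp4 lay closest to Clu, at r of 0.99 to 1.00. Among the members, r was 0.37 for Clu with Lcn2, 0.52 for Clu with Ptgds and -0.36 for Lcn2 with Ptgds. The libraries share depth and cell makeup, and these values are descriptions.

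The remaining genes of the pathways were read from 9 lists. Of the receptors and uptake genes, 11 of 16 were tested and 0 passed in either the unpaired or the paired fit, with a median paired difference of -0.15 against -0.04 for all genes. At an unadjusted p under 0.05, 2 were higher and 2 lower in the paired fit, where 7.74% of all tested genes were higher and 7.59% lower at that threshold. Lrp8, a receptor that binds clusterin, had a paired difference of 2.91 ± 0.99 (adjusted edgeR p 0.217). Lrp2, the megalin receptor that takes up clusterin and lipocalins, had 3.10 ± 1.06 (0.219) and 0 counts in both GFP- libraries of the 17C mice. Lrp8 rose by 4.49 ± 1.18 in the 17C mice alone (unpaired adjusted edgeR p 0.0454), and Lrp2 rose there (0.00846) from those 0 counts to 65 and 44 in GFP+. With the mesothelial marker level as a covariate and the mouse as a block, Lrp8 gave -1.05 and Lrp2 -3.16 over all mice. The part of mesothelial cells in these values was not tested further. Stab1, a scavenger receptor of macrophages and endothelium, had a paired difference of -1.79 ± 0.38 (adjusted edgeR p 0.0776). It was lower in 5 of 5 mice, as were 8.02% of tested genes. In the paired fit of the 21A mice Stab1 fell by 2.24 on the log2 scale (0.00444), where 4.05% of genes were called lower.

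Of the prostaglandin D2 genes, 6 of 9 were tested and 0 passed in the unpaired or the paired fit, with 2 higher and 0 lower at an unadjusted p under 0.05 in the paired fit (7.74% and 7.59% of all genes). Ptgs1, a cyclooxygenase that supplies the precursor, had a paired difference of 1.51 ± 0.51 (adjusted edgeR p 0.211), and in the 17C mice alone it rose by 3.14 ± 0.82 (unpaired, 0.0451). Hpgd, which inactivates prostaglandins, had 2.88 ± 0.88 (0.181) and was higher in 5 of 5 mice. In the 17C mice Hpgd rose by 6.81 ± 0.62 (unpaired adjusted edgeR p 0.000891), from 3 and 1 counts in GFP- to 157 and 161 in GFP+ libraries. Their mesothelial marker sums were 1.32 and 15.1 CPM in GFP- and 108 and 161 CPM in GFP+ libraries (17C1 and 17C2). With the mesothelial marker level as a covariate and the mouse as a block, the Hpgd and Ptgs1 differences over all mice turned negative. The part of mesothelial cells in these values was not tested further.

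Of the extracellular chaperones 4 of 13 were tested, of the terminal complement genes 3 of 10, and of the lipid transport proteins 5 of 14. Clu, which stands in all 3 lists, was the 1 gene that passed in the paired fit, where 0.858% of all tested genes were called. Unpaired, 0 genes of these lists passed, and 0.0825% of all tested genes were called higher. Sparc, a matrix protein with chaperone activity for collagen, had a paired difference of -0.31 ± 0.52 (adjusted edgeR p 0.831). Apoe, a lipoprotein of macrophages and other cells, had -1.77 ± 0.52 (0.170). Lpl, the lipase of muscle and fat, had -1.08 ± 0.43 (0.278). C3, the central complement protein and a relative of A2m, had 0.59 ± 0.58 (0.688). By series, Sparc rose by 1.12 in the 17C mice (unpaired adjusted edgeR p 0.0185), Lpl fell there by 2.11 (0.00179), C3 rose there by 2.22 in the paired fit (0.000165), and Apoe fell by 2.65 in the paired fit of the 21A mice (0.00681). The 17C libraries held 130 to 315 CPM of fibroblast markers and 22.1 to 41.9 CPM of macrophage markers. In the 21A mice, fibroblast markers summed to 6531 to 12102 CPM in GFP- and 1762 to 5132 CPM in GFP+ libraries. Macrophage markers there summed to 325 to 740 CPM in GFP- and 73.5 to 339 CPM in GFP+ libraries. The part of these cells in the results by series was not tested. Over all mice, 0 of the 3 tested genes of the A2m family passed in the unpaired or the paired fit.

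Of the 14 transcription factors and receptors placed upstream of Clu and Lcn2, all 14 were tested and 0 passed in the unpaired or the paired fit. At an unadjusted p under 0.05, 0 were higher and 4 lower in the paired fit, and 5 were lower in GFP+ in 5 of 5 mice. Of all tested genes, 7.74% were higher and 7.59% lower at that threshold, and 8.02% were lower in 5 of 5 mice. Of the list, 2 rose and 0 fell in the unpaired fit of the 17C mice, where 4.61% of all genes were called higher and 4.92% lower. In their paired fit 2 rose and 1 fell, against 6.08% and 7.52% of all genes. In the paired fit of the 21A mice 0 rose and 5 fell, against 2.67% and 4.05% of all genes. Egr1, an immediate early factor, had a paired difference of -1.17 ± 0.24 (adjusted edgeR p 0.0742). The AP-1 subunits Jun and Fos had -0.90 ± 0.21 (0.0977) and -1.06 ± 0.28 (0.134). All 3 were among the 5 that fell in the 21A mice, Egr1 by 1.38 (0.0165), Fos by 1.37 (0.0189) and Jun by 0.95 (0.0443), and Jun also fell in the paired fit of the 17C mice (by 0.80, 0.0473). Of the lipocalin family 2 of 17 were tested, Lcn2 and Ptgds, and of the proteases met by A2m and Lcn2 9 of 10, with 0 called in the unpaired or the paired fit in either list.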

How the data were processed

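RNA of GFP+ and GFP- cells sorted as cardiomyocytes was sequenced in 10 libraries, 2 from each of 5 mice. Per the labels' protocols, 1 ng of RNA was amplified with SMARTer v4 and made into Nextera XT libraries, a kit that does not mark strand. The authors deposited raw read counts for each gene. The submitters' processing notes list, in no stated order, the build GRCm39 and the tools featureCounts, Subread 2.0.1, STAR 2.7.9a and fastp 0.23.1; which annotation and strand setting served is not given in the sources used here. Members and gene lists were chosen with earlier results of these data known.

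The main test was the two-sided quasi-likelihood test of edgeR 4.0.16 under R 4.3.3 (TMM scaling, filterByExpr, 12115 genes kept, Benjamini-Hochberg adjustment over all of them, threshold 0.05), unpaired over all 10 libraries. The paired fit adds the mouse as a block; the pairing comes from the animal identifier in the titles, and same-mouse deviations from group means correlated at r = 0.292, 0.397, 0.161, 0.0741 and 0.637 (17C1 to 21A7). The difference between series was tested as an interaction with the mouse as a block. SE is the log2 fold change divided by the root of F. Alternatives used DESeq2 1.42.0, limma 3.58.1, other scalings, filters, covariates and left-out mice or libraries. The scripts were tested on simulated counts. Members were all named; from each list, up to 3 genes of smallest paired p and up to 2 others of highest level could be named, and the 5 genes most alike each member. Series here means the identifier prefix 17C or 21A, whose meaning the labels do not give. Fits within 1 series rest on 2 mice (17C) or 3 mice (21A), and their p-values lean on the variance shared across all genes.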

Additional observations from a re-analysis of the deposited data

Results flagged for a closer look

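Among the 5 libraries of a group, 2 member values stood apart from the rest by Dixon's criterion, in 15 sets tested. Chance marks about 1 in 20 sets of normally distributed values. These sets were taken on unlogged CPM, some with values of 0, so that rate need not hold for them. Lcn2 in the GFP+ library of 21A5 measured 16.6 CPM, with the next value at 5.71 CPM. A2m in the GFP- library of 21A7 measured 0.868 CPM, with the next value at 0.172 CPM.

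The change from GFP- to GFP+ differed between the 21A and 17C mice for 7 of the 16 genes tested among the members and the pathway genes named, by edgeR's interaction test with the mouse as a block, which called 7.62% of all 12115 genes. The differences, 21A minus 17C on the log2 scale, were 2.36 for Ptgds (adjusted p 0.0234), -2.61 for Ptgs1 (0.0245), -8.47 for Lrp2 (0.0367), -2.31 for Apoe (0.0321), -5.40 for Hpgd (0.0133), -2.37 for Sparc (0.0259) and -2.65 for C3 (0.0271). The Lrp2 value depends on the prior count, since both GFP- libraries of the 17C mice were at 0, and is no bound. Ptgds and Sparc also moved in opposite directions in every mouse of the 2 series, with mean differences of 2.40 for Ptgds and -2.37 for Sparc on log2 CPM.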

How the results depend on the processing

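Clu kept a positive difference under all 38 alternatives. It passed the threshold with the mouse as a replicate block (2.98), DESeq2 (3.18), limma voom (3.48), no filter (3.20), a filter of 5 CPM in 5 libraries (3.13), the series as a covariate (3.16), the 17C mice alone (2.73; paired 2.74), the 21A mice alone and paired (3.20), the non-myocyte score (3.27) and, added after seeing the data, the mesothelial score (3.34). Leaving out a mouse or library gave 2.62 to 3.46 for Clu, 0.52 to 2.68 for Lcn2, -0.89 to 0.44 for Ptgds, -0.88 to 1.15 for Apod, -1.11 to 2.05 for A2m, -1.56 to 0.10 for Sparc and -1.46 to 1.08 for C3. Unpaired, the ends were 2.80 for Clu (without the GFP+ library of 21A5), -0.32 for A2m and 0.79 for C3. With the replicate block and a mouse left out, Clu passed without 21A7 (3.36). The sign turned for Ptgds without 17C1 (0.44) or 17C2 (0.30), and for Apod without 21A4 (-0.64) or 21A7 (-0.78). It also turned for A2m without 21A4 (-1.11) or 21A7 (-0.38) and for Sparc without 21A5 (0.095). C3 was -0.78 unpaired but 0.59 with the block over all mice. With the block it stayed positive without any 1 mouse (0.11, 0.26, 0.77, 0.77 and 1.08).

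With library totals alone (median of all genes -1.24) the sign turned for Lcn2 (-0.063), Apod (-2.21), A2m (-2.04), Lrp2 (-0.57), Hpgd (-0.38) and Ptgs1 (-1.55). Limma voom turned Ptgds (0.31) and Apod (-0.89). In the 17C mice alone Lcn2 passed when paired (3.44), Ptgds passed (-1.40; paired -1.45), and Sparc (1.12; paired 1.13) and C3 (1.99; paired 2.22) turned, Sparc past the threshold in both fits (adjusted edgeR p 0.0185 and 0.00487) and C3 in the paired one (0.000165). In the 21A mice alone Ptgds turned (0.66; paired 0.92). C3 turned with the replicate block (0.59), the series covariate (0.22) and the non-myocyte score (2.13), which also turned Sparc (0.77). Over all mice, the replicate block changed the call of no member but Clu.

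Of the alternatives added after seeing the data, the mesothelial score turned Ptgds (1.67; paired 1.67), Apod (-2.48), A2m (-1.30) and Ptgs1 (-0.82; paired -0.24), and with the block Lcn2 (-0.033), Lrp8 (-1.05), Lrp2 (-3.16), Hpgd (-0.043) and Lpl (0.13). Scaling to cardiomyocyte markers turned Lcn2 (-0.71), Apod (-0.28; paired -0.62), A2m (-0.72; paired -0.63), Lrp2 (-0.40) and Ptgs1 (-0.49), and, paired, Ptgds (0.0499) and C3 (0.61). The difference between the series turned for Clu (-1.54 under that scaling; -0.25 to 1.26 with a mouse left out), passed for Lcn2 (-4.21), and for Ptgds no longer passed under that scaling (0.37), without the replicate block (2.05) or without 17C1 or 21A5 (2.0 to 2.77 with a mouse left out).

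The unpaired test called 10 genes. The count was 104 with the replicate block, 205 with DESeq2, 336 with voom, 635 with library totals, 38 without a filter, 19 with the 5 CPM filter, 97 with the series covariate, 1059 (paired 1510) in the 17C mice, 48 with the non-myocyte score, 0 (paired 889) for the 21A mice, 1015 (paired 297) with the mesothelial score, 0 (paired 0) under cardiomyocyte scaling, and 0 to 58 with a mouse or library left out. With the replicate block and a mouse left out it was 173 without 17C1, 0 without 17C2, 1 without 21A4, 6 without 21A5 and 71 without 21A7. Causes were not tested. The low counts of Lcn2, Apod and A2m limit what could be detected in them.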
